A study of Drosophila melanogaster with 4 samples.

Results

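HP1b enrichment was described along the euchromatic part of chromosome arm 3L of Drosophila melanogaster, taken as the arm without the 2 Mb next to the centromere. The members were the clusters (regions called as enriched) of the authors' combined set that lay on 3L and ended at or before base 22543557 of the 24543557-bp arm, on FlyBase release 5 of the genome. They numbered 1341 of the 8426 clusters in that set. The limit fell inside a stretch of 243 kb that was empty in all 3 cluster lists. The last member, 3L:22464260-22465854, was 1595 bp wide with a log2 score of 0.31 and was touched by replicate 2 only. The first cluster outside, 3L:22709378-22712068, was 2691 bp wide with a score of 1.75 and was touched by both replicates. A further 184 combined clusters of 3L lay beyond the limit and were left out.

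The study was chromatin immunoprecipitation with sequencing (ChIP-seq) on whole 3rd instar larvae of the wild-type strain Oregon-R, with the antibody HP1b (Henikoff), and there was 1 genotype, 1 stage and no treatment. It comprised 2 HP1b ChIP libraries and 2 Input libraries, and the Input libraries had no cluster file among those analysed. The labels do not say whether the ChIP libraries came from separate collections of larvae, and their spread may be technical. Whole larvae hold many tissues, so a cluster may come from any of them, and the share of cells behind it is unknown.

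HP1b is a member of the heterochromatin protein 1 family, whose proteins carry a chromodomain, which can bind methylated histone tails, and a chromoshadow domain, through which they pair and recruit partners. HP1a, the founding member, is known for its concentration in heterochromatin around the centromeres, whereas HP1b is seen by microscopy in euchromatin as well as in heterochromatin. Arm 3L is numbered from the telomere (the distal end) to the centromere (the proximal end), and its distal part is gene-bearing euchromatin.

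HP1b clusters were spread over the whole length of 3L euchromatin. Replicate 1 had 880 clusters there, or 39.0 per Mb, and replicate 2 had 1127, or 50.0 per Mb, against 59.5 per Mb in the combined set. The bases inside clusters were 9.37% of the stretch for replicate 1 and 12.7% for replicate 2, averaging 11.1% ± 2.39 (SD, n = 2). They made up 14.7% in the combined set, which was treated as not independent of the replicates and whose values have no error. Replicate 2 had the higher number and the higher covered share, and the files hold no read counts, so depth is unknown and its part in this gap between replicates was not tested.

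A typical cluster of 3L was about 2 kb wide. Member widths reached 11209 bp, with a median of 2183 bp and quartiles of 1801 and 2779 bp. Replicates 1 and 2 had medians of 2187 and 2243 bp, so the replicates differed far less in width than in number. Of the members, 564 (42.1%) were from 2000 to under 3000 bp wide and 65 were at least 5 kb wide. Clusters of at least 5 kb numbered 21 in replicate 1 and 44 in replicate 2. The narrowest cluster of either replicate's whole list was 1.3 kb wide, and 151 members of the combined set were narrower than that. The score that the authors gave each cluster, read here as a log2 value, had a median of 0.48 over the members. It was 0.68 in replicate 1 and 0.76 in replicate 2. What this score divides by what is not given in the sources used here, so it serves only to rank clusters within a list.

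Both replicates touched (by 1 bp or more) 785 of the 1341 members, or 58.5% (95% Wilson interval 55.9 to 61.1, counting error only), where the share over all sequences of the combined set was 51.3%. Neither replicate touched 200 members, or 14.9% (13.1 to 16.9), against 21.6% over all sequences. Replicate 2 alone touched 302 members (22.5%) and replicate 1 alone touched 54 (4.03%). The other long arms analysed, each without its proximal 2 Mb, had shares close to that of 3L. Both replicates touched 59.3% of the 2L clusters, 60.4% of those of 3R and 57.7% of those of X, all 3 within the interval of 3L. On 2L, 3R and X in that order, replicate 2 alone touched 23.2%, 22.7% and 22.7%. Replicate 1 alone touched 4.31%, 3.70% and 4.29%, so the imbalance between replicates was not particular to 3L.

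Replicate support followed width and score. The median width was 2549 bp for members touched by both replicates, 1919 bp for replicate 2 alone, 1748 bp for replicate 1 alone and 1196 bp for neither. In 4 width classes of nearly equal number, 4 of the 336 narrowest members (up to 1801 bp) were touched by both. From 1805 to 2183 bp the count was 173 of 336. It reached 295 of 334 from 2185 to 2779 bp and 313 of 335 in the widest class. The 4 classes by score gave the same order, with 48 of 336 members touched by both in the lowest, then 109, 299 and 329 of 335 each. Of the 200 members that neither replicate touched, 125 were narrower than the narrowest cluster of either replicate. Among members at least as wide as that, 66.0% were touched by both and 6.30% by neither.

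**Figure D1:**
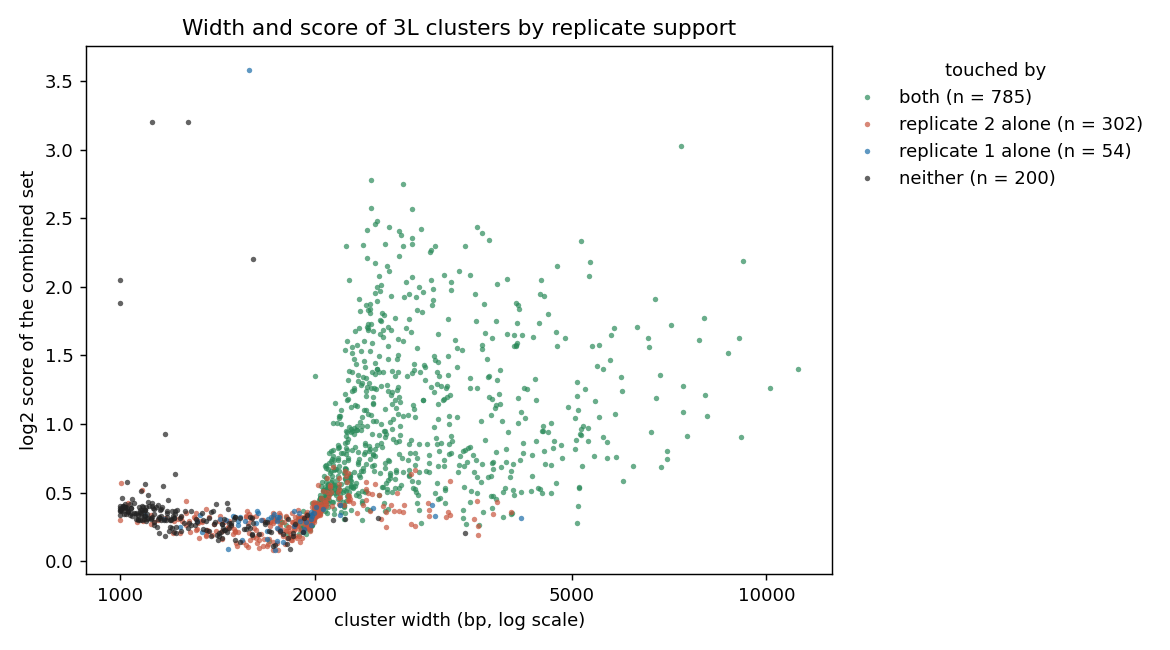
Each point is 1 of the 1341 combined clusters of 3L, with its width in bp on a log axis and its log2 score, coloured by which replicates touched it. Members touched by both (n = 785) fill the wide, high-scoring part, members touched by neither (n = 200) sit mostly near 1000 bp, and the few points above 2.5 at the left are narrow members near the distal end of the arm.

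Within the 785 members that both replicates touched, wider clusters tended to score higher (Spearman rho = 0.52). Over the 200 members touched by neither, the order ran the other way (rho = -0.64), so narrower members tended to score higher. The 3 highest scores of that class were nevertheless at widths of 1121, 1273 and 1605 bp, not at the narrowest. These correlations are across clusters that share libraries and called boundaries, and they describe the list.

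Positions were close between replicates where both had a cluster. Of the 880 replicate 1 clusters of 3L, 93.3% (91.4 to 94.8) were touched by a replicate 2 cluster, and of the 1127 replicate 2 clusters 71.0% (68.3 to 73.6) were touched in return. Matching each cluster once, by largest overlap, gave 794 pairs. Their midpoints lay a median of 70 bp apart, and 631 pairs (79.5%) lay within 250 bp. The replicate 2 cluster was the wider in 651 pairs (82.0%), by a median of 190.5 bp over all pairs. The rank correlation over the 794 pairs was 0.85 for scores and 0.74 for widths. In bases, 63.9% of what either replicate covered was covered by both.

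Most members stood for a single cluster in each replicate. A member touched exactly 1 cluster of each replicate in 735 cases, and 55 members touched 2 clusters in either replicate. Only 5 replicate 1 and 20 replicate 2 clusters of 3L were touched by no member. The highest-scoring of these was 3L:11667320-11668666 in replicate 2, with a log2 score of 0.69. The highest in replicate 1, 3L:19561028-19562392, scored 0.45. Neither was touched by the other replicate.

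Among members touched by both replicates, the highest score belonged to 3L:4623164-4630530, a cluster 7.37 kb wide. Its combined score was 3.03, and the replicates gave 3.04 and 3.38. Behind it came 3L:15974834-15977282 with a score of 2.78 (2.53 and 3.03 in the replicates) and 3L:21720634-21723376 with 2.75 (2.40 and 3.11). The remaining 7 of the top 10, in falling order, were 3L:2261550-2263994, 3L:4238504-4241332, 3L:9418758-9421258, 3L:18177742-18180226, 3L:13956786-13959394, 3L:16579232-16582798 and 3L:15580194-15583120, the last with 2.42. The scores of the 10 ran from 2.01 to 3.04 in replicate 1 and from 2.67 to 3.38 in replicate 2. Replicate 2 gave the higher score in 83.1% of all 794 matched pairs. Whether scores of different lists share a scale is not known, so this difference between replicates was not interpreted. Replicate clusters covered 76.9% to 98.2% of the length of these 10 members in replicate 1 and 85.5% to 100% in replicate 2. Apart from the first, these members were 2.44 to 3.57 kb wide, all above the median width of 2183 bp.

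The widest members were a different set, and no cluster stood in both lists of 10. The widest, 3L:3243952-3255160, spanned 11.2 kb and scored 1.40, with 80.8% of it covered in replicate 1 and 97.7% in replicate 2. The next, 3L:222234-232362, spanned 10.1 kb and was 98.9% covered in replicate 1 but 54.7% in replicate 2, which held 2 clusters there, as did replicate 1. Then came 3L:11283658-11292864 (9.21 kb), 3L:11111110-11120242 (9.13 kb) and 3L:22063374-22072444 (9.07 kb). The last 5 were 3L:3191522-3200256, 3L:16165182-16173290, 3L:10843988-10852016, 3L:5757546-5765556 and 3L:2583872-2591740. Scores of the 10 widest ran from 0.90 to 2.19.

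The distal tip of 3L held high-scoring members with little replicate support. The first member, 3L:20434-22016, had the highest score of all 1341, at 3.58. Replicate 1 covered 85.0% of it with a score of 3.33, and replicate 2 had no cluster there. The next members, 3L:22808-23928 and 3L:38060-39332, both scored exactly 3.20 and were touched by neither replicate. They were followed by 3 more members that neither replicate touched, with scores of 0.93, 0.34 and 0.36, the last ending at base 92084. The first replicate 2 cluster of the arm began at base 72752, and replicate 1 had its second at base 128352. The other members among the 5 highest-scoring that neither replicate touched were 3L:2317628-2319232 at 2.20, 3L:865452-866452 at 2.05 and 3L:21148970-21149970 at 1.88, all from 1.00 to 1.60 kb wide.

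Spacing between neighbouring clusters was uneven. The median of the 1340 gaps, counted from the end of a member to the start of the next, was 6031 bp against a mean of 14282 bp. Replicates 1 and 2 had median gaps of 9244 and 7046 bp. Gaps under 1 kb numbered 183 and gaps from 1 to under 5 kb numbered 410, and together they held little of the arm (0.36% and 4.90% of the stretch). Gaps of 10 to under 50 kb numbered 392 and held 36.9%. The 23 gaps of at least 100 kb were 1.72% of the gaps and held 15.0% of the stretch. The coefficient of variation of the gaps (SD over mean) was 1.60 and 1.75 in replicates 1 and 2 and 1.71 over the members, so that the SD exceeded the mean gap in every list.

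Dense runs were defined as 5 or more members in a row with no gap over 5000 bp. They held 198 members, or 14.8% (13.0 to 16.8), where the share over all sequences was 23.7%. In the replicates' own lists the share was 5.34% and 11.4%. Among the members it was 3.50% with a gap limit of 2500 bp, 45.0% with 10000 bp, and 1.54% in the higher-scoring 50% of the list. At 5000 bp there were 33 such runs, spanning 17.1 to 44.3 kb each and 856 kb in all, or 3.80% of the stretch. By size, 15 runs had 5 members, 10 had 6, 4 had 7, 1 had 8 and 3 had 9. The runs of 9 were at 3L:12103746-12143354, 3L:12998808-13038694 and 3L:19889362-19923002. The run of 8 at 3L:9412342-9456648 was the longest, at 44.3 kb, and contained the sixth-highest-scoring member of those that both replicates touched. The run at 3L:602970-642148 came first along the arm among the 4 with 7 members.

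All 33 runs contained clusters of both replicates, but only 2 had every member touched by both. A run holds 5 or more members, so holding a cluster of each replicate is a weak requirement. By the same rule, the lists of replicates 1 and 2 held 9 and 22 runs of their own. In the run at 3L:12998808-13038694, clusters covered 57.3% of the bases in replicate 1 and 65.5% in replicate 2. In the run at 3L:12103746-12143354 the values were 41.9% and 50.1%. The lowest coverage among the runs was 9.94% in replicate 1 and 27.9% in replicate 2. The median width was 2339 bp for members in runs and 2155 bp for those outside, and both replicates touched 66.7% of them against 57.1% outside. The replicates' own runs were also the wider, with medians of 2351 against 2178 bp in replicate 1 and 2292.5 against 2237 bp in replicate 2. At the other extreme, 64 members had gaps over 20 kb on both sides, with a median width of 2089 bp, and both replicates touched 62.5% of them. Neither replicate touched 20.3% of these 64 (12.3 to 31.7), against 13.1% of members in runs and 15.2% of those outside.

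The dense windows of 3L were shared between replicates. In 225 windows of 100 kb, the covered share had a median of 8.46% for replicate 1 and 12.4% for replicate 2. By the mean of the replicates, the densest of these 225 windows was 3L:600001-700000. Clusters covered 29.0% and 44.7% of it in replicates 1 and 2 and 46.7% in the combined set (replicate mean 36.9% ± 11.1, SD, n = 2). It held 11 clusters of replicate 1 and 16 of each other list. Next was 3L:11300001-11400000, with 28.8% and 36.7% in the replicates, then 3L:16100001-16200000, with 29.8% and 35.4%. The window 3L:9400001-9500000 had 25.2% and 37.9%, and 3L:4200001-4300000 had 28.2% and 33.1%. The SD of the first (11.1) was larger than its lead over any of the other 4, and it had rank 1 in replicate 2 and rank 3 in replicate 1, so their order is not settled by these libraries.

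**Figure D2:**
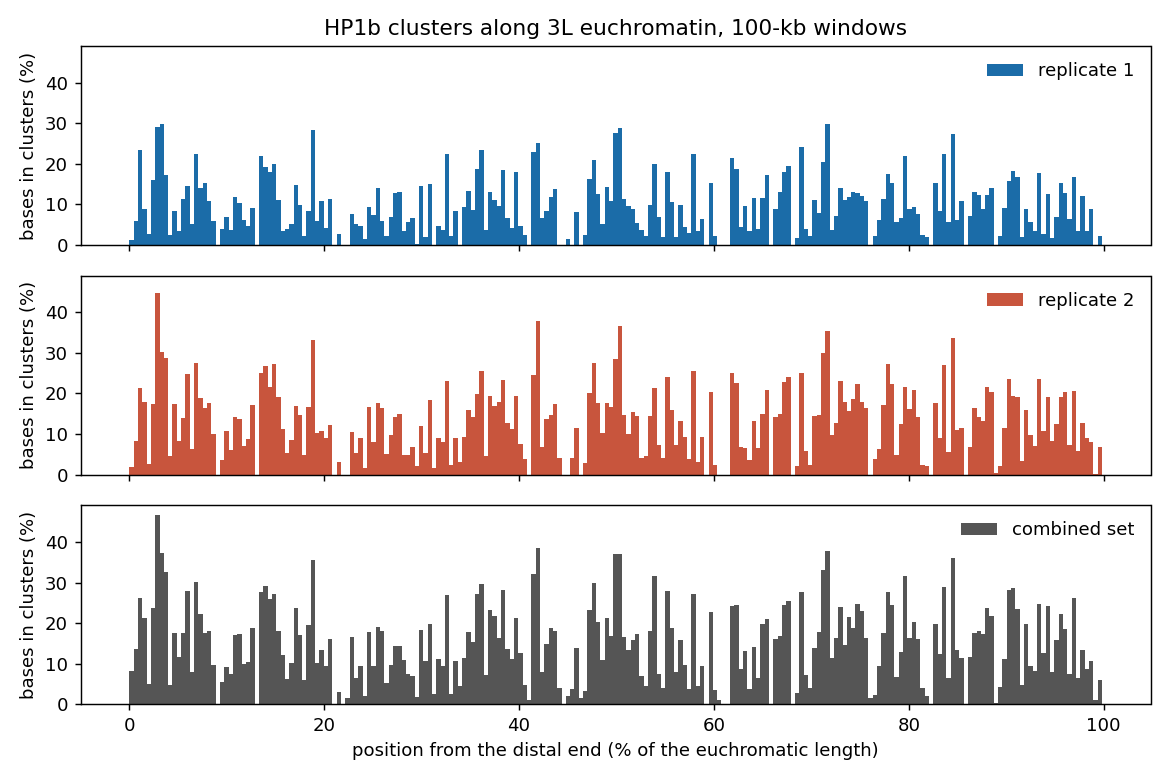
Bars give the percentage of bases inside HP1b clusters in each of 225 windows of 100 kb, from the distal to the proximal end of 3L euchromatin, for replicate 1, replicate 2 and the combined set. Of the 22 densest windows of each replicate 17 are the same, 17 windows are empty in both, replicate 2 is the higher in 192 of 225, and the tallest bar of replicate 2 (44.7%) stands near the distal end.

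Replicate 2 exceeded replicate 1 in 192 windows, fell below it in 16 and equalled it in 17, all 17 at 0 in both. The ranks of the windows had a Spearman rho of 0.95 between replicates (n = 225 windows of the same 2 libraries). Of the 22 densest windows of each replicate, 17 were the same. The clusters were not confined to few windows: the bases covered reached 50% of their total in 53 windows (23.6%) in replicate 1 and 60 (26.7%) in replicate 2. Density carried over to the adjoining window only weakly, with a rho of 0.11 and 0.19 between neighbours in replicates 1 and 2. At a distance of 200 kb it was 0.00 and 0.02.

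Cluster counts per window had a variance above their mean at each of 5 window sizes from 50 to 1000 kb. The variance of the count over its mean was 1.69 in replicate 1 and 1.72 in replicate 2 in 50-kb windows. It was 3.15 and 3.47 in windows of 500 kb and 2.63 and 3.63 in windows of 1000 kb. At that size no window was empty, and the covered share ran from 5.68% to 13.7% in replicate 1 and from 8.14% to 20.3% in replicate 2.

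Along the arm, the distal part was the most covered. In 5 equal parts from the distal end, the mean covered share was 12.9% ± 2.87, 9.21% ± 1.87, 11.0% ± 2.31, 11.7% ± 2.40 and 10.5% ± 2.47 (SD, n = 2 each). The order of the 5 was the same in both replicates, with the first part highest and the second lowest. The difference between the first and the second was 10.8% against 7.88% in replicate 1 and 14.9% against 10.5% in replicate 2. The fourth part, next in that order after the first, had 9.97% in replicate 1 and 13.4% in replicate 2. Neighbouring means in that order lay closer together than the SDs. Those SDs carry the higher coverage of replicate 2 in every part, so they do not measure the spread of differences between parts within a library.

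Long stretches of 3L had no cluster in any of the 3 lists. Those of at least 100 kb numbered 23 and added up to 3.38 Mb, or 15.0% of the stretch, and those of at least 50 kb numbered 89 and made up 34.2%. They were found in all 5 parts of the arm, with 4, 4, 6, 4 and 5 of the 23 starting in each from the distal end. Stretches were cut at the limit of the part, so the 243-kb stretch across it is not among the 23 and is not ranked. The longest of the 23 was 3L:13660787-13912021, of 251 kb. In the replicates it was part of a still longer gap, of 405 kb in replicate 1 (3L:13507472-13912045) and 404 kb in replicate 2 (3L:13507573-13912061). The only members wholly inside that longer gap were 3L:13567352-13568568, with a score of 0.64, and 3L:13659676-13660786, with 0.40, both narrower than any replicate cluster and touched by neither replicate. Its distal edge was a high-scoring member, 3L:13505140-13507546, with 2.42 and touched by both.

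The next stretches were 3L:4826831-5064077 (237 kb) and 3L:9966393-10197695 (231 kb). The gap was also longer in each replicate there, at 305 and 294 kb around the first and 305 and 251 kb around the second. The remaining 7 were 3L:15299436-15493293 (194 kb), 3L:2870164-3035002 (165 kb), 3L:14798964-14960109 (161 kb), 3L:18454660-18613227 (159 kb), 3L:11827059-11985221 (158 kb), 3L:13257978-13404519 (147 kb) and 3L:1971993-2114787 (143 kb). For these 7 the replicate gaps were at most 1.10 times the gap in the combined set. The 10 together spanned 1846 kb. Of the 100-kb windows, 12 had no covered base in any list and 17 had none in either replicate. The first 5 of those 17 along the arm began at bases 2000001, 2900001, 4700001, 4900001 and 5000001, and the last of these held 1 member that neither replicate touched.

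**Figure D3:**
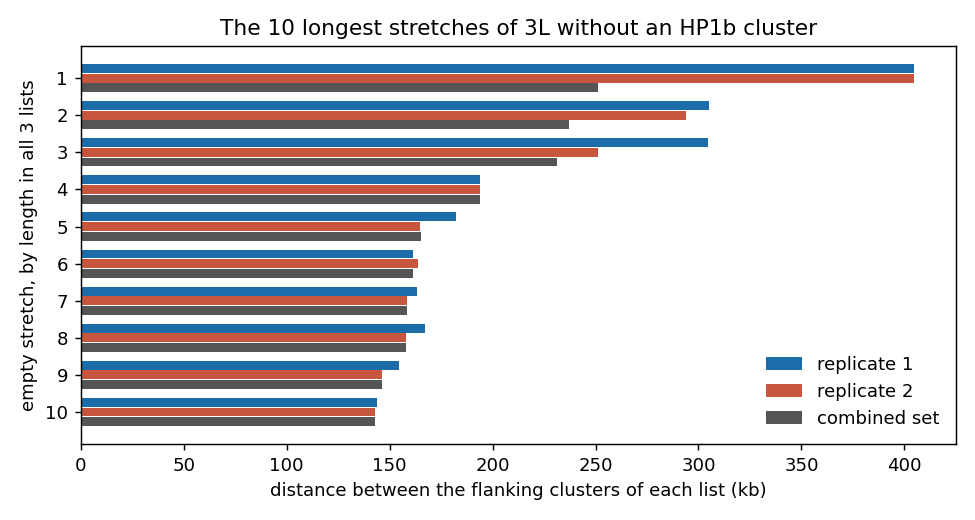
Bars give, for each of the 10 longest stretches of 3L empty in all 3 lists, the distance in kb between the flanking clusters of each list (replicate 1, replicate 2, combined set). From the fourth stretch (194 kb) on, the replicate bars are at most 1.10 times the bar of the combined set. The first 3 exceed it by over 1.2 times in at least 1 replicate, most of all the first (405 and 404 kb against 251 kb).

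Compared with the autosomal arms 2L and 3R, 3L had more clusters per Mb and a smaller share of them in dense runs, in both libraries. Arm 2R was not used here. Arms 2L and 3R and the X chromosome, each without its 2 proximal Mb, were treated in the same way. The covered share of 3L was 1.08 ± 0.00402 times that of 2L and 3R together (SD, n = 2), and higher in both libraries. Per Mb, 3L had 39.0 and 50.0 clusters in replicates 1 and 2, against 35.4 and 45.3 on 2L and 36.2 and 45.7 on 3R. The X had more than 3L, with 48.2 and 60.5. The share of clusters in dense runs was 5.34% and 11.4% on 3L, while 2L had 9.42% and 16.6%, 3R had 9.28% and 13.8%, and X had 15.0% and 21.9%. In replicates 1 and 2 these shares rested on 9 and 22 runs on 3L, 13 and 28 on 2L, and 16 and 27 on 3R. The dense-run share was lower on 3L than on 2L and 3R together by a mean of 3.86 percentage points (-3.86 ± 0.203, SD, n = 2). With a limit of 10000 bp on the gap, 3L stayed below both arms in each list. With 2500 bp it lay between them in the combined set, at 3.50% against 3.05% on 2L and 3.99% on 3R. The SDs of the ratio and of the difference give the spread between the 2 libraries. They do not measure the counting error of an arm, where clusters of 1 run are not independent. The direction was the same in 2 of 2 libraries for both comparisons. No p is given, since with 2 libraries the smallest p of a two-sided exact sign test is 0.5.

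The coefficient of variation of the gaps was lower on 3L (1.60 in replicate 1) than on 2L (1.76), on 3R (1.70) or on X (1.72) in that replicate. In replicate 2 it was 1.75 on both 3L and 3R, so the 3L value did not stand apart there.

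**Figure D4:**
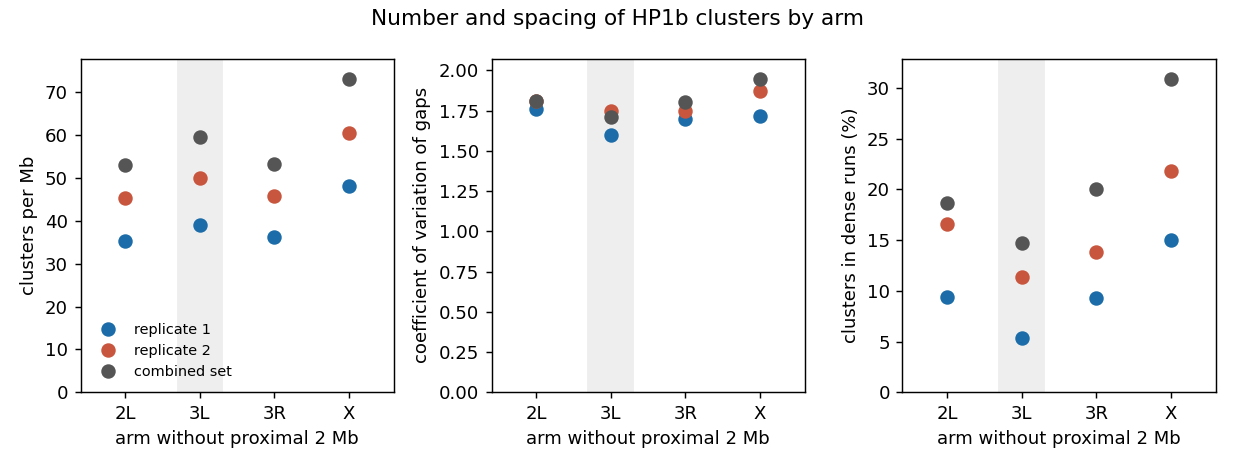
Points give, for each arm without its proximal 2 Mb, the clusters per Mb, the coefficient of variation of the gaps and the percentage of clusters in dense runs, for replicate 1, replicate 2 and the combined set, with 3L shaded. In each list 3L lies above 2L and 3R in clusters per Mb (39.0 and 50.0 in the replicates) and below them in the share in dense runs (5.34% and 11.4%).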

How the data were processed

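Clusters of 2 HP1b ChIP libraries and the authors' combined set were analysed, grouped by title. The submitters' processing notes name Bowtie 0.12.7. How clusters were called, and with which threshold, is not given in the sources used here. Per the file headers, positions refer to FlyBase release 5. Each deposited row is 1 cluster with the authors' score, read here as a log2 value. Base 2 was inferred from scores shared by several clusters: in the combined set, 437 of 7140 pairs differed by the base-2 log of a small whole-number ratio (tolerance 1e-06), against 2 with natural logarithms and 11 with base 10.

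Rows marked as depletion were left out. Counts, gaps, windows and Wilson intervals (95%) were computed with Python 3.11.15, numpy 2.4.6, pandas 2.3.3 and scipy 1.17.1, and drawn with matplotlib 3.10.9. The functions were tested on simulated data. Gaps run from the first to the last cluster. Windows of 100 kb start at base 1.

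Regions named were the 10 highest-scoring and 10 widest members touched by both replicates, the 5 largest dense runs, the 5 densest and 5 sparsest windows, the 10 longest empty stretches, the 5 highest-scoring members touched by neither, and the highest-scoring replicate clusters no member touched. Ties went to the more distal region. The tip members, the members inside the longest replicate gap and the class with gaps over 20 kb were chosen after their values were seen. Members and rules were chosen with earlier results of these data known. Genes were not assigned, as no release 5 annotation was used here. Alternatives were width, score, merging, overlap, gap limit, window size, the proximal limit, each list alone and each replicate left out. Those for the difference in dense-run share were chosen after seeing the data.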

Additional observations from a re-analysis of the deposited data

How the results depend on the processing

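Over 9 results, 61 alternatives were run. Only the ratio of 3L to 2L and 3R and the difference in dense-run share had a direction to reverse, and no alternative reversed either. Of the 61, 8 left out a replicate. Of the other 53, 25 changed little (by less than the spread between replicates or the counting interval, or, for the number of members, by less than 1.5 times) and 28 moved by more. The 25 include alternatives that could not change their result, such as the width limit on the covered share, the ratio and the difference. Taking the higher-scoring 50% of each list, which keeps fewer clusters by construction, gave 648 members, a covered share of 6.45%, a ratio to 2L and 3R of 1.06, 61.3% of members touched by both, a median gap of 12561 bp, 1.54% of members in dense runs, a longest empty stretch of 343 kb and a difference in dense-run share of -1.30 points. Leaving out members narrower than any replicate cluster (1.3 kb) removes no replicate cluster. It therefore could not change the covered share, the ratio or the difference. It gave 66.0% touched by both, 11.8% in dense runs and a longest empty stretch of 404 kb. Merging clusters under 1000 bp apart gave a median gap of 7633 bp, and reciprocal 50% overlap gave 55.0% touched by both. With proximal limits of 1 and 4 Mb the ratio was 1.07 and 1.10 and the difference in dense-run share -3.53 and -2.32 points. Gap limits of 2500 and 10000 bp put 3.50% and 45.0% of members in dense runs, with differences of -0.79 and -2.22 points. In cluster number per Mb the ratio was 1.09. The combined set gave a covered share of 14.7%, a ratio of 1.11 and a difference of -4.68 points. Replicate 1 alone gave a median gap of 9244 bp and 5.34% in dense runs, and replicate 2 alone gave 11.4%. Leaving out each replicate gave a covered share of 9.37% to 12.7%, a ratio of 1.079 to 1.085 and a difference of -4.00 to -3.72 points. The longest empty stretch (251 kb) is bounded by members of the combined set, so leaving out a replicate could not lengthen it. Where the construction does not show it, the cause was not tested. The size of the dense-run share therefore depends on the gap limit, the list and the score. Depth is unknown and the Input libraries were not analysed here, so a stretch without a cluster is one without a call.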

Other observations

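The authors marked 1 region of 3L euchromatin as depleted in the combined set, 3L:11480160-11481814, 1655 bp wide with a log2 score of -0.03. Replicate 2 had such a region at 3L:11480139-11481767, 1629 bp wide with a score of -0.02, and the pair shared 1608 bp. Replicate 1 listed none. No cluster touched it in any list, and the nearest combined cluster lay 2.05 kb away on the proximal side. It stood in the window 3L:11400001-11500000, next to 1 of the 5 densest windows, where clusters covered 11.3% of bases in replicate 1 and 14.6% in replicate 2.

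Among the 5 highest-scoring members that neither replicate touched, the scores of the first 3 were equal or 1 apart. The members 3L:22808-23928 and 3L:38060-39332 had identical scores of 3.20, and 3L:2317628-2319232, more than 2 Mb away with a score of 2.20, lay below them by 1 on the log2 scale to 9 decimals. What the score counts is not given in the sources used here.

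Replicate 1 covered more than replicate 2 in 16 of 225 windows of 100 kb. The most negative difference, replicate 2 minus replicate 1, was -3.14 percentage points in 3L:14200001-14300000 (9.70% against 6.56%), while the most positive was 15.7 points, in the densest window. In 3L:10100001-10200000 replicate 1 covered 1.52% and replicate 2 none.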
